A study of Mus musculus with 6 samples.

Results

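Tlr4, Tlr2 and Cd14 encode the cell-surface machinery through which macrophages recognise bacterial products. CD14 is a co-receptor that picks up lipopolysaccharide (LPS), the cell-wall glycolipid of Gram-negative bacteria, and hands it to TLR4, which signals together with its partner MD-2. TLR2 recognises bacterial lipoproteins as a dimer with TLR1 or TLR6, and CD14 also assists it. Signalling from these receptors activates NF-κB, and the glucocorticoid receptor, the target of glucocorticoids such as Dex, restrains many of the genes that NF-κB switches on. The data here are lists of DNase I hotspots, stretches of open chromatin recognised because DNase I cuts accessible DNA in nuclei more often and the short fragments it releases are sequenced. Overlapping hotspots of the 6 lists (sharing 1 bp or more) were joined into regions, and those touching fixed mm9 windows around the 3 genes were taken, on chromosome 4 at 66400000 to 66600000 (Tlr4), chromosome 3 at 83580000 to 83710000 (Tlr2) and chromosome 18 at 36830000 to 36940000 (Cd14). They number 39 of 59069 regions in all, with 9 at Tlr4, 14 at Tlr2 and 16 at Cd14.

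All libraries came from primary macrophages grown from the bone marrow of C57BL/6J mice, and every group received LPS for 8 h. Of the 3 groups of 2 libraries, one received Dex before the LPS (pre-treated), another received Dex late in the LPS treatment (late-treated), and the third received LPS alone. The labels give no dose of Dex and no interval between Dex and LPS, and whether replicates are separate animals or cultures is not stated, so the spread between them may be technical. Cells without LPS were not analysed here, so the values say nothing about what LPS itself did at these loci. The pre-treated lists hold 34646 and 44686 hotspots, the late-treated lists 29347 and 44447, and the LPS lists 48084 and 51834. With 2 libraries against 2, the exact two-sided permutation test of a single value cannot give a p below 0.333, so no comparison here could pass 0.05.

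The windows differ in what else they hold. In the RefSeq annotation of GRCm38.p6, used for gene order alone, Tlr4 (gene 21898) stands by itself, with Astn2 and Brinp1 as the next protein-coding genes and none within 100 kb. Tlr2 (gene 24088) lies between Sfrp2 and Tmem131l, the only 2 protein-coding genes within 65 kb. Cd14 (gene 12475) lies between E230025N22Rik and Tmco6 in a dense stretch, with 10 other protein-coding genes within 55 kb, among them Ndufa2, Ik, Wdr55 and Hars. An mm9 annotation was not used here, so no region is assigned to an exon, an intron or a promoter. A region in the Tlr2 or Cd14 window may belong to a neighbour. In GRCm38.p6, Sfrp2 lies 62.0 kb and Tmem131l 56.4 kb from Tlr2, and the Tlr2 window spans 130 kb. The window edges fell in empty stretches at Tlr4 and Tlr2, where the nearest regions outside lay 440281 and 29018 bp away. At Cd14 the first region straddled the lower edge, at 36829338 to 36830330, and a region listed by all 6 libraries lay 2339 bp beyond the upper edge.

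The 250 bases upstream of the RefSeq start of Tlr2 (GRCm38.p6, chr3:83841609-83841858, minus strand) are shown because no upstream sequence of Tlr4 or Cd14 was available here. The loci could therefore not be compared in sequence. NF-κB matches are marked because NF-κB acts downstream of the receptors. Capitals mark matches to the NF-κB consensus.

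Tlr2 upstream: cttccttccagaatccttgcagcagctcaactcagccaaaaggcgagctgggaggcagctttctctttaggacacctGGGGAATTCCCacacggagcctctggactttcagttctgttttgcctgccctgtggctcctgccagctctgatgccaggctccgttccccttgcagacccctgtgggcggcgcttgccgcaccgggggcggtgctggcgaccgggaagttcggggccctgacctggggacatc

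A pair of overlapping matches to the NF-κB consensus filled positions -173 to -163, counted back from the start. On both strands together, 5.93% of 32851 promoter windows of this length held at least 1 match. The window held no AP-1 site (TGAGTCA, found in 4.46% of promoter windows), no PU.1 site (GAGGAA followed by GT, 2.44%), no glucocorticoid receptor site (AGAACA and TGTTCT with 3 bases between them, 0.00913%) and no single copy of AGAACA (16.1%), which lies inside the glucocorticoid receptor motif. These are matches of letters and not bound sites, and which hotspot covers this sequence in mm9 was not determined.

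All 3 loci were open in every library, and their strongest regions were the same ones in most. Of the 39 regions, 19 were listed by all 6 libraries (48.7%), against 42.5% of all regions of the series. The shared regions were 3 of 9 at Tlr4, 5 of 14 at Tlr2 and 11 of 16 at Cd14. The pre-treated libraries listed 25 and 35 of the 39, and the late-treated libraries listed 20 and 28, against 36 in each LPS library. These are 64.1% and 89.7% in pre-treated, 51.3% and 71.8% in late-treated, and 92.3% in each of the LPS libraries. Of all 59069 regions, the pre-treated libraries listed 55.1% and 72.5%, the late-treated libraries 46.5% and 71.6%, and the LPS libraries 78.6% and 85.5%. Every Dex library listed fewer regions than both LPS libraries at these loci and over the whole series alike, and replicate 1 of the late-treated group listed the fewest in both.

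**Figure D1:**
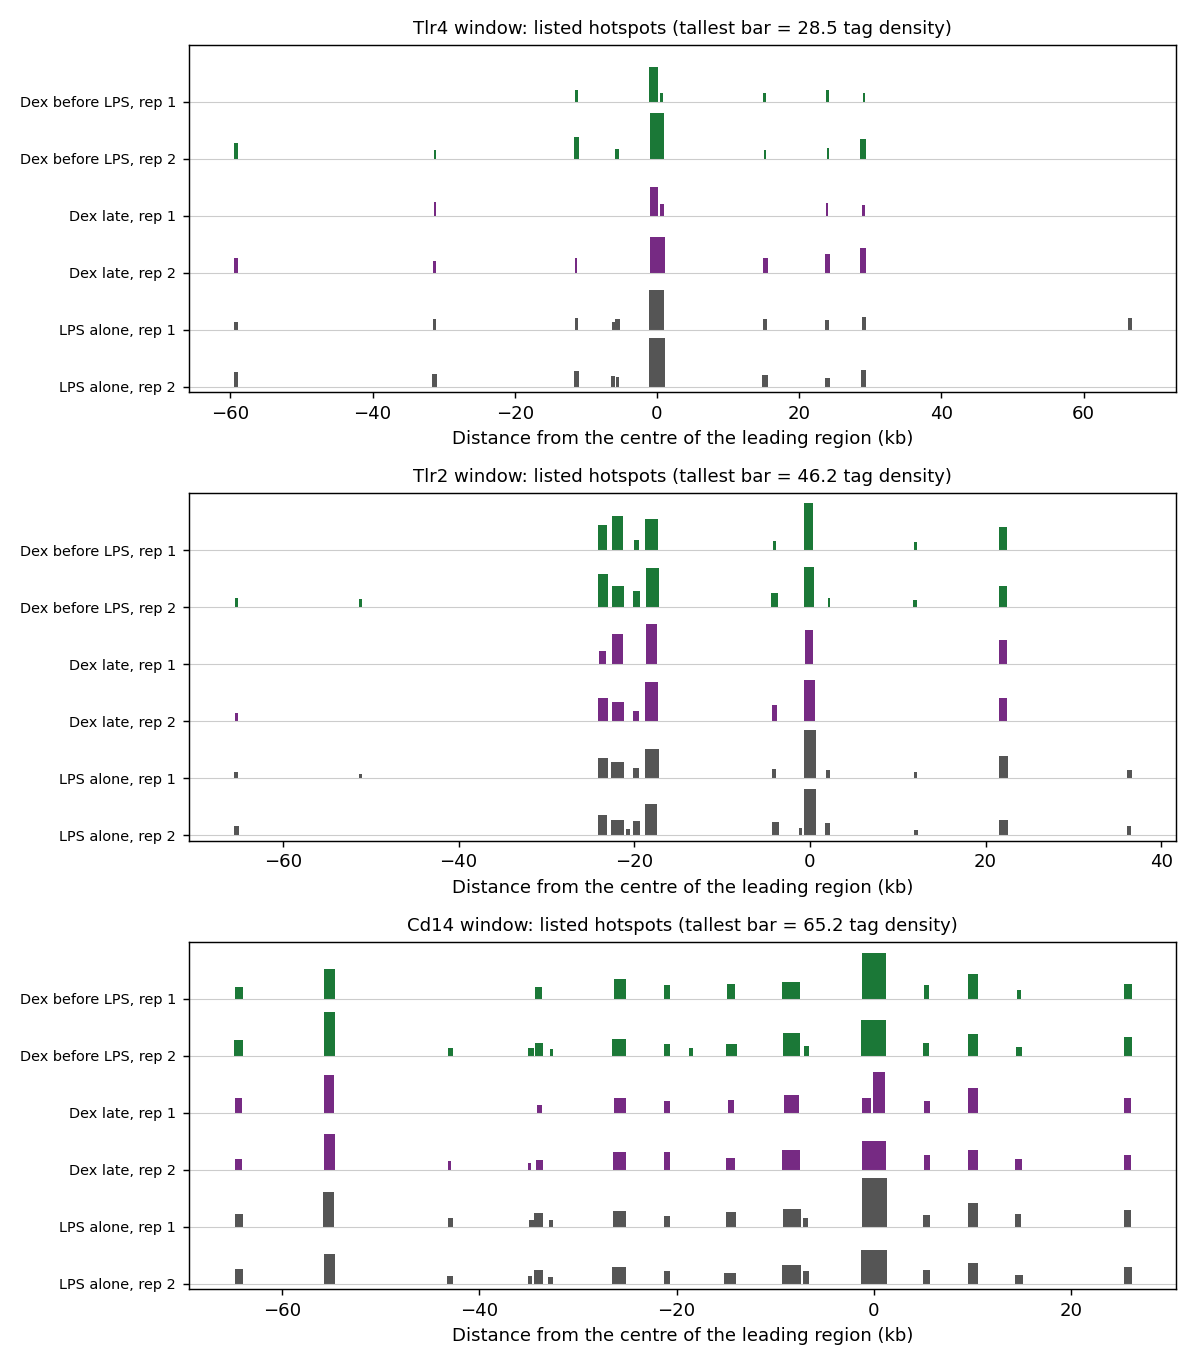
Hotspots in the Tlr4, Tlr2 and Cd14 windows by library. The horizontal axis is the distance in kb from the centre of the leading region, bar width is hotspot width, bar height is the deposited maximum tag density on a scale common to each panel, and each row is 1 library. The tall central bar at Tlr4 is present in all 6 rows, and the LPS rows carry the most small bars.

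The length covered by hotspots in each window shows how far each locus was called open. At Tlr4 the hotspots covered 3064 and 5438 bp in pre-treated libraries, 2845 and 5606 bp in late-treated libraries, and 6931 and 7290 bp with LPS alone. At Tlr2 they covered 7071 and 8995 bp in pre-treated libraries, 5109 and 7624 bp in late-treated libraries, and 9681 and 10535 bp with LPS alone. At Cd14 they covered 11857 and 15806 bp in pre-treated libraries, 10632 and 13461 bp in late-treated libraries, and 15355 and 16209 bp with LPS alone. Both Dex groups thus lay below both LPS libraries at Tlr4 and Tlr2, while at Cd14 the pre-treated libraries overlapped the LPS range.

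The mean covered length at Tlr4 was 4251 ± 1679 bp in pre-treated and 4226 ± 1952 bp in late-treated, against 7111 ± 254 bp in LPS libraries (SD, n = 2 each, exact permutation p = 0.333 for each Dex group). At Tlr2 it was 8033 ± 1360 bp in pre-treated and 6367 ± 1778 bp in late-treated, against 10108 ± 604 bp in LPS libraries (exact permutation p = 0.333 for each Dex group). At Cd14 it was 13832 ± 2792 bp in pre-treated and 12047 ± 2000 bp in late-treated, against 15782 ± 604 bp in LPS libraries (exact permutation p = 0.667 for pre-treated and 0.333 for late-treated libraries). The Dex groups overlapped each other at all 3 loci. These lengths move with the whole list, which covered 28.1 and 37.6 Mb in the pre-treated, 23.5 and 36.2 Mb in the late-treated, and 40.6 and 44.3 Mb in the LPS libraries. As a share of the list, hotspots at Tlr4 held 109 and 144 bp per Mb in pre-treated, 121 and 155 in late-treated, and 171 and 165 in LPS libraries. Tlr4 thus kept the lower share with Dex after this scaling. When lists were trimmed, the covered length stayed lower on average with Dex. Only the pre-treated libraries at a common minimum z-score then remained free of overlap with LPS alone. With every list cut to the length of the shortest, the Tlr4 differences from LPS alone shrank to -1258.5 bp in pre-treated (exact permutation p = 0.667) and -391 bp in late-treated libraries (exact permutation p = 1.0), and both Dex groups overlapped the LPS libraries. With a common minimum z-score they were -2234.5 bp in pre-treated (exact permutation p = 0.333) and -1327.5 bp in late-treated libraries (exact permutation p = 0.667). At Tlr2 the share was 252 and 239 bp per Mb in pre-treated, 218 and 211 in late-treated, and 239 and 238 in LPS libraries. The pre-treated and late-treated groups then lay on opposite sides of the LPS group, with the lower pre-treated library above the higher LPS library by a narrow margin. With lists cut to equal length, the Tlr2 differences from LPS alone were -609.5 bp in pre-treated and -1528 bp in late-treated libraries, still with no overlap. With a common minimum z-score the pre-treated libraries overlapped LPS alone (-1458 bp, exact permutation p = 0.667). The late-treated libraries did not (-2585.5 bp, exact permutation p = 0.333). At Cd14 the share was 422 and 420 bp per Mb in pre-treated, 453 and 372 in late-treated, and 378 and 366 in LPS libraries. There the pre-treated libraries lay above the LPS libraries, the reverse of the raw lengths, and the late-treated libraries overlapped the LPS range.

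**Figure D2:**
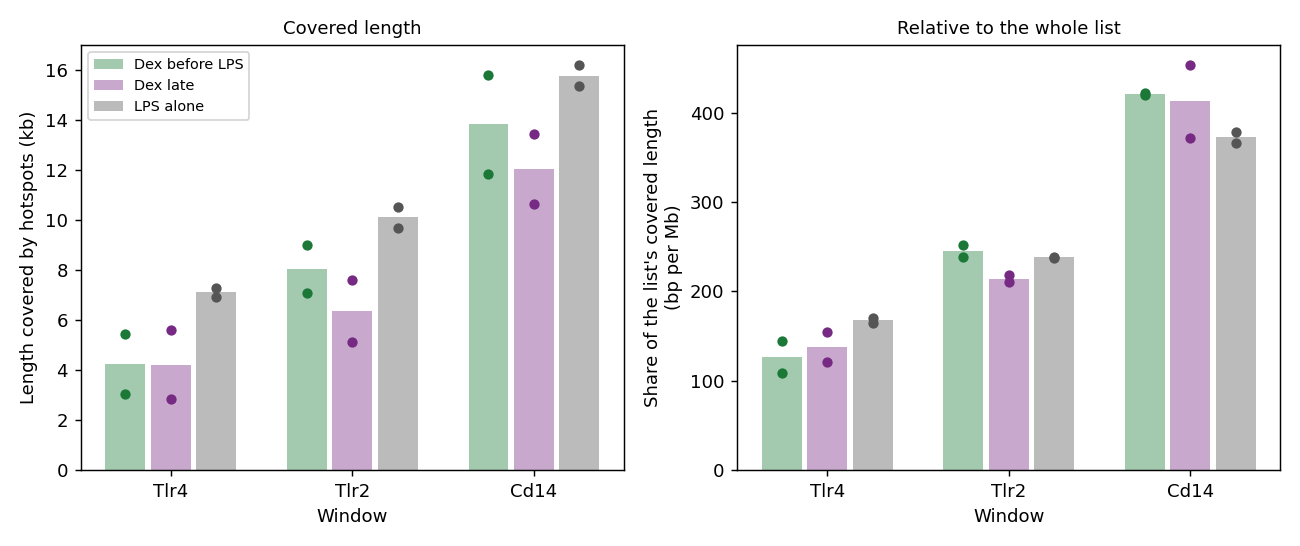
Covered length of hotspots in each window. The left panel gives kb and the right panel the share of the length covered by the whole list, in bp per Mb; points are single libraries and bars are means of 2. On the left both Dex groups lie below LPS alone at Tlr4 and Tlr2, and on the right this holds for both only at Tlr4.

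The strength of a region was compared over the 25091 regions that all 6 libraries listed, where every library ranks the same regions. A region's percentile is its rank by the deposited z-score among them, from 0 (weakest) to 100 (strongest). The maximum tag densities printed below are the authors' values, each from its own list, and no source states how lists were scaled to each other.

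Counted over the 19 shared regions, groups that did not overlap were about as common as elsewhere. Pre-treated libraries both lay above both LPS libraries in 5 regions (3 at Tlr2 and 2 at Cd14), which is 26.3%, against 19.3% of all shared regions of the series. They both lay below in 3 regions, 15.8% against 19.3%. Late-treated libraries both lay above LPS alone in 5 regions, 26.3% against 17.2%, and below in 5 regions, 26.3% against 18.0%. Pre-treated libraries lay above late-treated ones in 1 region, 5.26% against 14.7%, and below in 3 regions, 15.8% against 14.5%. Each of these counts lies within 2 regions of what the share for the whole series would give. The same LPS libraries serve both Dex comparisons. How often both Dex groups at once lay on the same side of LPS alone was not counted over the whole series.

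Tlr4 had a single dominant open region. It lay on chromosome 4 at 66488103 to 66490378 and was the strongest of the window in all 6 libraries. Its maximum tag density was 20.2 and 26.6 in pre-treated, 16.8 and 20.8 in late-treated, and 23.1 and 28.5 in LPS libraries. Its z-score percentile was 74.2 and 81.4 in pre-treated, 69.9 and 76.7 in late-treated, and 77.7 and 84.8 in LPS libraries. Both late-treated libraries lay below both LPS libraries, with a mean difference of -8.00 percentile points (exact permutation p = 0.333), and the pre-treated libraries overlapped both other groups. Ranked by maximum density, the pre-treated libraries lay above the late-treated ones without overlap, by a mean of 10.4 points. The region's hotspots summed to 1563 and 2033 bp in pre-treated, 1794 and 2085 bp in late-treated, and 2168 and 2274 bp in LPS libraries. Every Dex library thus called it narrower. The same held for the regions at 83688793 (Tlr2), 36884884 and 36899188 (Cd14), so it was not particular to this region. Widths were not compared over the whole series. Replicate 1 of each Dex group listed the Tlr4 region as 2 separate hotspots, and the other 4 libraries as 1. The summed widths of those replicates leave out the gap between the hotspots.

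The other 2 shared Tlr4 regions ranked below the middle of the shared regions in every library. The region at 66512871 to 66513560, 24.0 kb up the chromosome from the dominant one, had maximum densities of 6.59 and 6.45 in pre-treated, 7.20 and 11.1 in late-treated, and 5.35 and 5.21 in LPS libraries. Its percentile was 4.08 and 0.751 in pre-treated, 13.4 and 18.2 in late-treated, and 3.10 and 1.36 in LPS libraries. The late-treated libraries stood above all others, by a mean of 13.6 points over LPS alone and with a difference of -13.4 points for pre-treated minus late-treated libraries (exact permutation p = 0.333 each). These densities are small: in whole steps of each library's own density scale they were 16 and 17 in pre-treated, 18 and 25 in late-treated, and 16 and 15 in LPS libraries. In replicate 1 of the late-treated group the region thus lay 1 to 3 steps above the pre-treated and LPS values, and steps differ in size between libraries.

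The region at 66517863 to 66518682 had maximum densities of 5.35 and 11.8 in pre-treated, 6.00 and 14.2 in late-treated, and 7.36 and 9.72 in LPS libraries. Its percentile was 2.02 and 33.7 in pre-treated, 7.57 and 44.3 in late-treated, and 7.73 and 22.2 in LPS libraries. Replicate 2 was the higher library in all 3 groups, and the groups overlapped.

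The remaining 6 Tlr4 regions were each missing from at least 1 Dex library. The regions at 66457635 to 66458244, 66477506 to 66478252 and 66504068 to 66504831 were each listed by 5 libraries, and replicate 1 of a Dex group was the missing one each time. The region at 66482827 to 66483986 was listed by both LPS libraries, at maximum densities of 6.35 and 6.25, by replicate 2 of the pre-treated group at 5.69, and by neither late-treated library. The region at 66429701 to 66430319 was listed by the LPS libraries and by replicate 2 of both Dex groups. The region at 66555440 to 66555996 was listed by replicate 1 of the LPS group alone.

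Tlr2 carried a group of neighbouring regions and a separate strong one 18.0 kb away. The order of the separate region and the one at 83648443 was turned by z-score in replicate 2 of both Dex groups. By maximum density it was turned in replicate 1 of the late-treated group alone. The separate region, at 83666530 to 83667947 on chromosome 3, had the highest mean percentile of the window. Its maximum density was 45.3 and 38.3 in pre-treated, 32.8 and 39.0 in late-treated, and 46.2 and 43.7 in LPS libraries. Its percentile was 79.6 and 73.3 in pre-treated, 77.2 and 76.8 in late-treated, and 83.4 and 82.2 in LPS libraries. Both Dex groups lay below LPS alone, with mean differences of -6.33 points (pre-treated minus LPS) and -5.85 points (late-treated minus LPS) and an exact permutation p of 0.333 for each. Its hotspot was also narrower with Dex, at 1042 and 1174 bp in pre-treated, 946 and 1233 bp in late-treated, and 1417 and 1354 bp in LPS libraries. Every Dex library called several other regions of these windows narrower as well, and widths were not compared over the whole series.

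The nearest strong region of the group, at 83648443 to 83650046, ran the other way. Its maximum density was 30.1 and 37.2 in pre-treated, 38.4 and 36.8 in late-treated, and 27.4 and 29.5 in LPS libraries. Its percentile was 75.4 and 80.1 in pre-treated, 75.6 and 85.2 in late-treated, and 71.1 and 71.7 in LPS libraries. All 4 Dex libraries lay above both LPS libraries, by means of 6.36 points in pre-treated and 9.00 points in late-treated libraries. By z-score it outranked the separate region in replicate 2 of both Dex groups, and by maximum density in replicate 1 of the late-treated group, while in both LPS libraries the separate region led on both measures. Ranked within each whole list in place of the shared regions, its differences from LPS alone were close to 0, at -0.112 points in pre-treated and -0.248 points in late-treated libraries.

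The region at 83644541 to 83646113 differed by most points in mean percentile of all 19 shared regions in the comparison of pre-treated libraries with LPS alone. Its maximum density was 32.5 and 19.7 in pre-treated, 28.4 and 18.2 in late-treated, and 15.7 and 13.9 in LPS libraries. In whole density steps these values were 79 and 52 in pre-treated, 71 and 41 in late-treated, and 47 and 40 in LPS libraries. Its percentile was 76.0 and 60.9 in pre-treated, 73.0 and 53.6 in late-treated, and 51.6 and 36.0 in LPS libraries. All 4 Dex libraries again lay above both LPS libraries, by means of 24.6 points (68.4 ± 10.7 against 43.8 ± 11.1) in pre-treated and 19.5 points (63.3 ± 13.8 against 43.8 ± 11.1) in late-treated libraries (SD, n = 2 each, exact permutation p = 0.333). The share of all shared regions of the series with this pattern was not computed. Replicate 1 was the higher library in every group, and the margin between the lower Dex library and the higher LPS library was small. Ranked within whole lists, the pre-treated libraries still lay above LPS alone, by 8.81 points, while the late-treated libraries overlapped LPS alone, with a difference of 3.69 points. Among the shared regions, the late-treated difference of 19.5 points fell to 9.76 points when late-treated replicate 1 was left out. It fell to 11.7 points when LPS replicate 2 was left out.

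Its neighbour at 83643105 to 83644221 separated the pre-treated group. The maximum density there was 23.9 and 31.5 in pre-treated, 12.4 and 21.7 in late-treated, and 19.4 and 19.4 in LPS libraries. The percentile was 61.2 and 76.3 in pre-treated, 42.6 and 58.7 in late-treated, and 48.8 and 52.8 in LPS libraries. Both pre-treated libraries lay above both libraries of each other group, by a mean of 18.0 points over LPS alone and 18.1 points over late-treated libraries, and the late-treated libraries overlapped the LPS range. Ranked within whole lists, the pre-treated libraries overlapped both other groups, with differences of 4.12 points from LPS alone and 16.3 points from late-treated libraries. Among the shared regions, the pre-treated difference from LPS alone fell from 18.0 to 10.4 points without replicate 2 of the pre-treated group.

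The last shared Tlr2 region, at 83688793 to 83689801, had maximum densities of 22.2 and 20.5 in pre-treated, 22.8 and 22.1 in late-treated, and 21.4 and 14.6 in LPS libraries. Its percentile was 61.6 and 50.8 in pre-treated, 62.2 and 62.6 in late-treated, and 62.8 and 33.9 in LPS libraries. Replicate 2 of the LPS group stood low and the Dex groups overlapped LPS alone in this percentile. The pre-treated libraries lay below the late-treated libraries, with a mean difference of -6.19 points. Ranked by maximum density, the late-treated libraries lay above LPS alone without overlap, by a mean of 15.0 points.

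**Figure D3:**
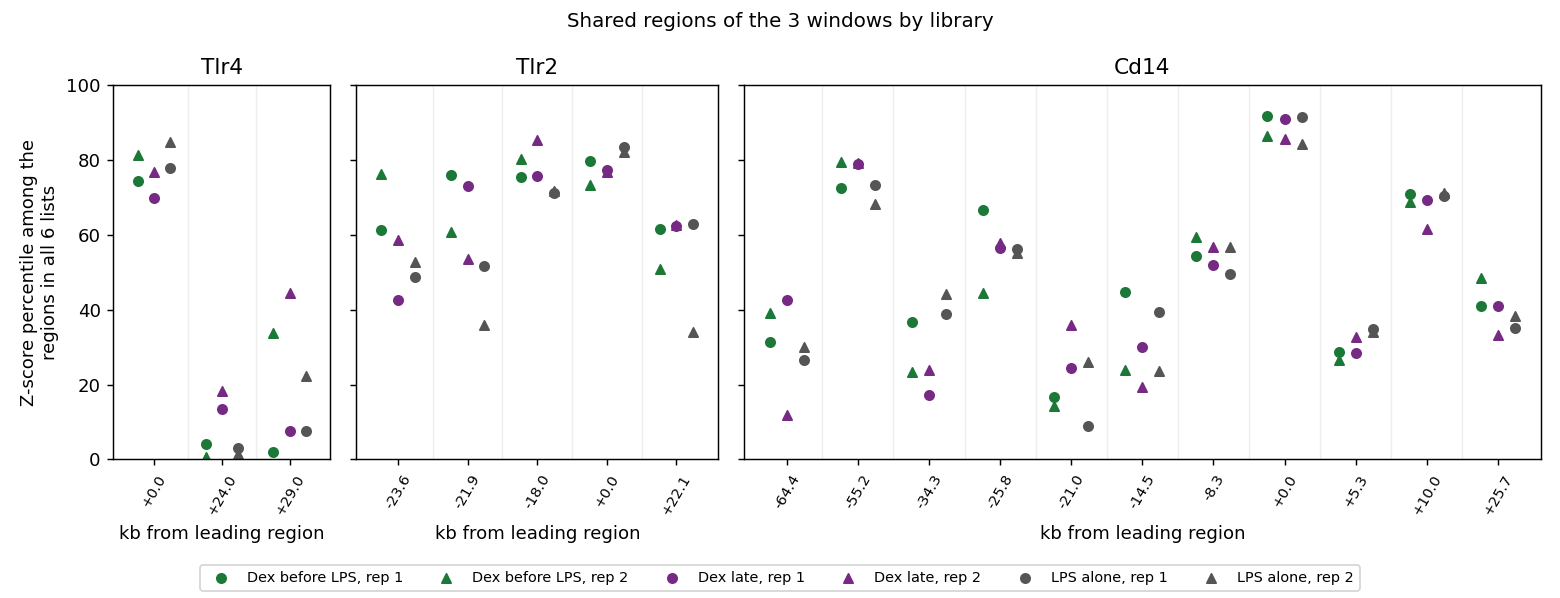
Z-score percentile of each region shared by all 6 lists, by window. The horizontal axis gives the distance in kb from the leading region, circles are replicate 1, triangles are replicate 2, and colours are the groups. At Tlr2 the regions at -21.9 and -18.0 kb have all 4 Dex points above both LPS points, and the region at 0.0 kb has them below.

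Ratios of densities within a library do not depend on how lists were scaled to each other, and were computed after the values above were seen. Relative to the separate region at 83666530, the maximum density at 83648443 was 0.664 and 0.970 in pre-treated, 1.17 and 0.943 in late-treated, and 0.594 and 0.675 in LPS libraries. The late-treated libraries lay above both LPS libraries, while replicate 1 of the pre-treated group lay inside the LPS range. At 83644541 the ratio was 0.718 and 0.515 in pre-treated, 0.866 and 0.466 in late-treated, and 0.341 and 0.317 in LPS libraries. All 4 Dex libraries exceeded both LPS libraries, with means of 0.617 ± 0.144 in pre-treated and 0.666 ± 0.283 in late-treated against 0.329 ± 0.016 in LPS libraries (SD, n = 2 each, exact permutation p = 0.333 for each comparison). At 83643105 it was 0.527 and 0.822 in pre-treated, 0.378 and 0.557 in late-treated, and 0.420 and 0.444 in LPS libraries. There the pre-treated libraries lay above both LPS libraries, and the late-treated libraries overlapped them. At 83688793 it was 0.491 and 0.535 in pre-treated, 0.695 and 0.568 in late-treated, and 0.464 and 0.333 in LPS libraries. All 4 Dex ratios exceeded both LPS ratios there, although the z-score percentiles of that region overlapped LPS alone. The separate region, which is the denominator of all these ratios, itself ranked lower in both Dex groups, so a higher ratio does not show that the other region was stronger.

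**Figure D4:**
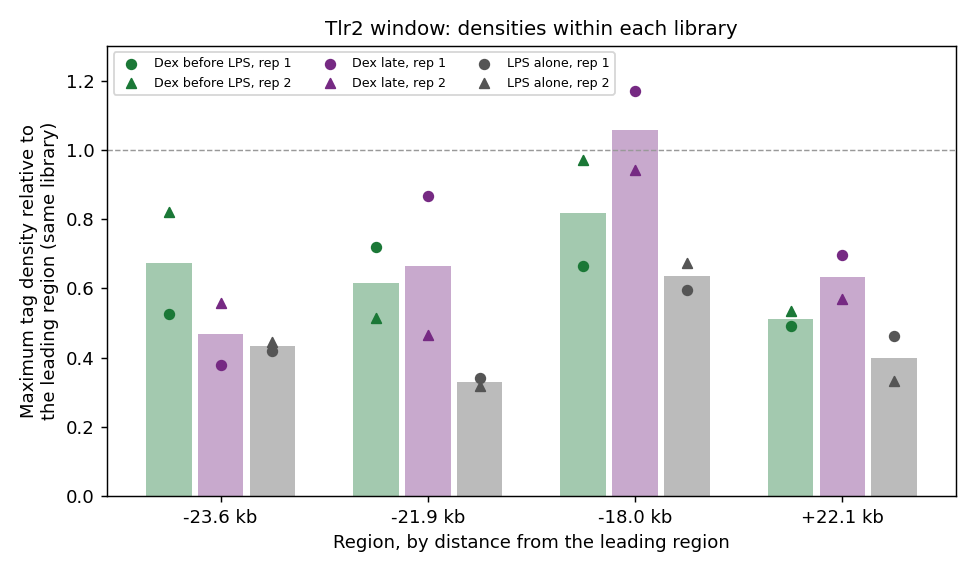
Maximum tag density of the other shared Tlr2 regions relative to the leading region of the same library. The horizontal axis names each region by its distance in kb, bars are means of 2 libraries, and points are the libraries. At -21.9 kb all 4 Dex points lie above the LPS points, which are 0.341 and 0.317.

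Of the weaker Tlr2 regions, 1 was listed by both LPS libraries and by none of the 4 Dex libraries. It lay at 83703369 to 83703871, with maximum densities of 7.69 and 8.68 and z-scores of 11.2 and 13.0. The lowest z-scores that the Dex lists hold were 9.34 and 9.16 in pre-treated and 11.6 and 8.98 in late-treated libraries, so replicate 1 of the late-treated group lists nothing as low as the weaker of these LPS values. The region at 83679026 to 83679576 was listed by both pre-treated libraries, at maximum densities of 7.41 and 6.83, by neither late-treated library, and by both LPS libraries at 5.69 and 4.86. The region at 83668984 to 83669562 was listed by replicate 2 of the pre-treated group at 8.73, by neither late-treated library, and by both LPS libraries at 7.36 and 11.5. The regions at 83647063 to 83647897 and 83662818 to 83663676 were listed by all libraries other than replicate 1 of the late-treated group. Of the other 4, the region at 83601638 to 83602248 was listed by 4 libraries, the one at 83615926 to 83616279 by 2, and those at 83646336 to 83646739 and 83666042 to 83666320 by replicate 2 of the LPS group alone.

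Cd14 was the most evenly listed window. Its leading region on chromosome 18, at 36892888 to 36895552, had maximum densities of 60.9 and 48.6 in pre-treated, 54.02 and 39.0 in late-treated, and 65.2 and 45.5 in LPS libraries. Its percentile was 91.7 and 86.4 in pre-treated, 90.9 and 85.5 in late-treated, and 91.5 and 84.1 in LPS libraries. The groups overlapped in this percentile, and replicate 1 was the higher library in each. Ranked by maximum density, the late-treated libraries lay below both other groups without overlap. The mean differences were -4.94 points (late-treated minus LPS) and 3.61 points (pre-treated minus late-treated). Its z-score was the highest of the window in every library, while the maximum density of replicate 2 of both Dex groups was higher at 36838373 to 36839634.

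That region, at -55.2 kb from the leading one, had maximum densities of 40.4 and 58.1 in pre-treated, 50.8 and 47.4 in late-treated, and 46.5 and 39.9 in LPS libraries. Its percentile was 72.5 and 79.5 in pre-treated, 78.9 and 79.0 in late-treated, and 73.2 and 68.1 in LPS libraries. The late-treated libraries lay above both LPS libraries, by a mean of 8.30 points, and the pre-treated libraries overlapped LPS alone.

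The region at 36859114 to 36860668 had the largest mean difference from LPS alone among the 11 shared Cd14 regions in both Dex groups. Its maximum density was 15.6 and 16.7 in pre-treated, 10.4 and 13.3 in late-treated, and 17.7 and 17.7 in LPS libraries. Its percentile was 36.7 and 23.3 in pre-treated, 17.1 and 23.8 in late-treated, and 38.9 and 44.2 in LPS libraries. Both Dex groups lay below LPS alone, with mean differences of -11.6 points (pre-treated minus LPS) and -21.1 points (late-treated minus LPS) and an exact permutation p of 0.333 for each. The pre-treated difference turned to 3.91 points when hotspots within the region were averaged in place of taking the strongest.

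Smaller differences ran in both directions. At 36829338 the maximum density was 15.6 and 21.6 in pre-treated, 19.2 and 14.2 in late-treated, and 17.4 and 19.1 in LPS libraries, and the pre-treated percentiles lay above LPS alone by a mean of 6.90 points. At 36919515 it was 19.8 and 25.1 in pre-treated, 20.0 and 19.5 in late-treated, and 22.7 and 22.9 in LPS libraries, and the pre-treated percentiles lay above LPS alone by a mean of 8.15 points. Ranked by maximum density, the late-treated libraries lay below LPS alone at 36919515 without overlap, with a mean difference of -7.53 points. The maximum densities of these regions overlapped between pre-treated and LPS libraries, so the order rests on the z-score. Ranked within whole lists, the differences became -5.78 points at 36829338 and -4.06 points at 36919515, and that of the late-treated libraries at 36838373 became -0.256 points.

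At 36899188 the maximum density was 18.5 and 17.5 in pre-treated, 16.0 and 19.9 in late-treated, and 16.1 and 18.4 in LPS libraries. Both Dex groups had lower z-score percentiles than LPS alone there, with mean differences of -6.82 points (pre-treated minus LPS) and -4.01 points (late-treated minus LPS), and both differences changed sign when ranked by maximum density, to 2.25 and 3.22 points. At 36903730 it was 33.4 and 29.2 in pre-treated, 33.6 and 26.6 in late-treated, and 31.8 and 27.4 in LPS libraries, and the late-treated percentiles lay below LPS alone with a mean difference of -5.35 points. These densities, too, overlapped between groups.

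At 36867695 the maximum density was 26.4 and 22.4 in pre-treated, 19.2 and 23.5 in late-treated, and 21.4 and 21.9 in LPS libraries. The late-treated percentiles lay above LPS alone by a mean of 1.57 points, and this changed sign when ranked by maximum density. At 36872899 it was 17.7 and 15.2 in pre-treated, 15.2 and 23.5 in late-treated, and 13.7 and 17.4 in LPS libraries, with pre-treated percentiles below late-treated ones (mean difference -14.7 points). At 36879073 it was 19.8 and 15.6 in pre-treated, 16.8 and 15.9 in late-treated, and 19.7 and 13.9 in LPS libraries. At 36884884 it was 21.8 and 30.0 in pre-treated, 23.2 and 27.0 in late-treated, and 23.4 and 25.3 in LPS libraries. The groups overlapped in percentile in the last 2 regions in every comparison.

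Of the other 5 Cd14 regions, those at 36861228 to 36861722 and 36887017 to 36887677 were listed by replicate 2 of the pre-treated group and both LPS libraries, and by neither late-treated library. The region at 36851003 to 36851584 was missing from replicate 1 of both Dex groups, and the one at 36908518 to 36909299 from replicate 1 of the late-treated group. The region at 36875456 to 36875842 was listed by replicate 2 of the pre-treated group alone, at a maximum density of 10.6.

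Averaged over the shared regions of a locus and ranked by z-score among them, Tlr2 separated the groups, and Tlr4 and Cd14 did not. Its mean percentile was 69.5 ± 1.75 in pre-treated, 66.7 ± 0.879 in late-treated and 59.4 ± 5.83 in LPS libraries (SD, n = 2 each), and all 4 Dex libraries lay above both LPS libraries. The differences from LPS alone were 10.1 points in pre-treated and 7.30 points in late-treated libraries, and without replicate 2 of the LPS group they were 5.96 and 3.17 points. Ranked within whole lists, they were 0.932 points in pre-treated and -3.47 points in late-treated libraries, and both Dex groups overlapped LPS alone. At Tlr4 the mean percentile was 32.7 ± 8.38 in pre-treated, 38.3 ± 11.4 in late-treated and 32.8 ± 4.67 in LPS libraries. At Cd14 it was 48.6 ± 2.63 in pre-treated, 46.7 ± 2.17 in late-treated and 47.98 ± 0.473 in LPS libraries. The groups overlapped at both of these loci. Ranked within whole lists, both Dex groups lay below LPS alone at Cd14, with differences of -7.01 points in pre-treated and -12.2 points in late-treated libraries. The Dex lists are shorter and start at higher z-scores, so ranks within whole lists also reflect how many weak hotspots a list holds. Ranked by maximum density among the shared regions, Cd14 was lower in late-treated than in LPS libraries (difference -1.95 points) and higher in pre-treated than in late-treated libraries (2.91 points), with no overlap. Which locus separated the groups thus depended on the ranking. These averages run over regions chosen by position and carry no test.

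Regions in both LPS libraries and neither library of a Dex group outnumbered the reverse pattern, at these loci as over the whole series. The LPS lists are the longest. Of the 39 regions, 0 were listed in both pre-treated libraries and neither LPS library, against 0.957% of all regions, and 0 in both late-treated libraries and neither LPS library, against 0.547%. Shares this small would give few or no regions among 39, so the counts of 0 do not set these loci apart. In the opposite direction, 1 region was listed in both LPS and neither pre-treated library (2.56% against 8.48%), and 6 in both LPS and neither late-treated library (15.4% against 9.22%). The 6 were 1 region at Tlr4, 3 at Tlr2 and 2 at Cd14. Between the Dex groups, 1 region was listed in both pre-treated and neither late-treated library (2.56% against 1.53%), and 0 in the reverse pattern, against 0.350%. When every list was cut to its strongest 29347 hotspots, the length of the shortest list, 0 regions were in both LPS and neither late-treated library, and 1 was in both late-treated and neither LPS library.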

How the data were processed

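DNase-seq libraries of bone marrow-derived macrophages were made from nuclei treated for 3 min at 37 °C with 80 U/ml of DNase I, keeping fragments between 100 and 500 bp and reading 51 bp from single ends, per the labels' protocols. One hotspot list per library was deposited. Reads went through CASAVA and positions are in mm9, per the submitters' processing notes. The sources used here give no aligner, hotspot caller or threshold, nor the base from which positions count. Per the file headers, the deposited signal values are the maximum and average tag density, the deposited score is a z-score, and the deposited p-value is that of the hotspot (not used here). Read depth is unknown, so no counting interval is given.

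The files were read with Python 3.11.15 (pandas 2.3.3, numpy 2.4.6, scipy 1.17.1, matplotlib 3.10.9). Hotspots overlapping by at least 1 bp were merged into regions, a region took its strongest hotspot in each library, and z-scores were ranked among the regions listed by all 6 libraries. Groups, taken from the sample titles, were compared by exact two-sided permutation tests and by whether their values overlapped. All shared regions were described, with those whose groups do not overlap given their differences. The gene windows, motifs and lists were chosen with earlier results of these data known. Lists of pathway genes and cell type markers could not be placed in mm9 and were not used, so the cell type rests on the label. The upstream sequence came from RefSeq, whose table matched 1 of the 3 genes, Tlr2. Steps were tested on simulated lists. Density steps took every maximum density as a whole multiple within 0.1 of a step. Alternatives were another strength measure, whole-list ranks, merging, windows, list length, a common z-score minimum, a replicate block and leaving out each library.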

Additional observations from a re-analysis of the deposited data

How the results depend on the processing

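Differences are given in percentile points or bp, in the order in which the groups are named. Ranked within each whole list, where the Dex lists are shorter and start at higher z-scores, the mean difference turned to -4.36 (Tlr4, late-treated minus LPS, 5.53 as reported), -3.47 (Tlr2, late-treated minus LPS, 7.30) and -7.01 (Cd14, pre-treated minus LPS, 0.637). With windows widened by 50 kb, the Cd14 means turned to 0.450 (late-treated minus LPS) and -0.0248 (pre-treated minus late-treated). Single regions turned under whole-list ranks at Tlr2 83648443 (-0.112 pre-treated and -0.248 late-treated minus LPS) and at Cd14 36829338 (-5.78, pre-treated), 36838373 (-0.256, late-treated), 36867695 (-8.55, late-treated) and 36919515 (-4.06, pre-treated). Ranked by maximum density, Cd14 turned at 36867695 (-0.0409, late-treated), 36899188 (2.25 pre-treated, 3.22 late-treated) and 36919515 (-1.35, pre-treated), and ranked by average density at 36867695 (-0.541). The mean over hotspots turned Cd14 36859114 to 3.91 (pre-treated minus LPS). The Tlr2 regions at 83643105, 83644541 and 83666530 kept their directions under every alternative run, but under whole-list ranks the groups came to overlap at 83643105 (pre-treated against LPS, 4.12) and 83644541 (late-treated against LPS, 3.69). The mean of Tlr2 then differed from LPS by 0.932 in pre-treated libraries, with overlap, and Cd14 separated both Dex groups from LPS (late-treated -12.2). Ranked by average density, the pre-treated libraries overlapped LPS alone at Tlr2 83666530, with a difference of -2.60.

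As a share of the list, in bp per Mb, covered length turned to 7.0 (Tlr2, pre-treated minus LPS), 48.7 and 40.3 (Cd14, pre-treated and late-treated minus LPS) and -11.35 (Tlr4, pre-treated minus late-treated). The last was 25.5 bp as reported, and -867.5 bp with lists of equal length and -907.0 bp with a common minimum z-score. With equal lists the Tlr4 differences from LPS were -1258.5 bp (pre-treated) and -391 bp (late-treated), with overlap in both, and with a common minimum z-score the late-treated one was -1327.5 bp, with overlap. The Tlr2 pre-treated difference overlapped LPS with a common minimum z-score (-1458 bp) and in widened windows (-543 bp). Without replicate 1 of the Dex group compared, the lengths differed from LPS by -1672.5 bp (Tlr4, pre-treated), -1504.5 bp (Tlr4, late-treated), -1113 bp (Tlr2, pre-treated), -2484 bp (Tlr2, late-treated) and -2321 bp (Cd14, late-treated), each over 1.5 times smaller. The mean percentile difference from LPS at Tlr2 ranged over 5.96 to 14.2 (pre-treated) and 3.17 to 11.4 (late-treated), lowest without LPS replicate 2 and highest without LPS replicate 1. Leaving out each library, differences that turned ranged over -6.04 to 5.82 (Tlr4, pre-treated minus LPS, turned without pre-treated replicate 1 or LPS replicate 2), -2.53 to 13.6 (Tlr4, late-treated minus LPS, without late-treated replicate 2) and -13.7 to 2.42 (Tlr4, pre-treated minus late-treated, without pre-treated replicate 1 or late-treated replicate 2). At Cd14 they ranged over -1.22 to 2.50 (pre-treated minus LPS, without pre-treated replicate 1) and -2.77 to 0.293 (late-treated minus LPS, without late-treated replicate 2). Covered length ranged over -1355.0 to 1406 bp (Tlr4, pre-treated minus late-treated, without pre-treated replicate 2 or late-treated replicate 1), -3925 to 24.0 bp (Cd14, pre-treated minus LPS, without pre-treated replicate 1) and -189.5 to 3759.5 bp (Cd14, pre-treated minus late-treated, without pre-treated replicate 2).

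Counts of regions whose groups do not overlap were 5 for pre-treated above LPS (3 by maximum density, 1 by whole-list rank), 3 for pre-treated below LPS (1 by average density, 7 by whole-list rank), 5 for late-treated above LPS (3 by average density, 0 by whole-list rank, 9 in widened windows) and 5 for late-treated below LPS (10 by whole-list rank). They were 1 for pre-treated above late-treated (4 by maximum density, 5 by average density, 4 by whole-list rank) and 3 for pre-treated below late-treated (1 by each of these, 6 in widened windows). Leaving out each library, which by construction makes separation easier, gave 7 to 9, 4 to 6, 7 to 8, 6 to 8, 4 to 8 and 4 to 6 in the same order. Regions in both LPS and neither pre-treated library numbered 1 (0 with equal lists, 4 when hotspots had to cover 50% of the region, 1 to 9 leaving out a library), and in both LPS and neither late-treated library 6 (0 with equal lists, 2 with a common minimum z-score, 6 to 14 leaving out a library). Regions in both late-treated and neither LPS library numbered 0 (1 with equal lists), in both pre-treated and neither late-treated 1 (0 with a common minimum z-score, 1 to 7 leaving out a library), in both late-treated and neither pre-treated 0 (1 with equal lists and with a common minimum z-score, 0 to 1 leaving out a library), in both pre-treated and neither LPS 0 (0 to 1 leaving out a library), and in all libraries 19 (19 to 24 leaving out a library). The cause of these changes was not tested. The labels do not say that replicate numbers pair the libraries, and deviations of same-numbered libraries correlated at 0.363 (pre-treated and LPS), 0.354 (late-treated and LPS) and 0.415 (pre-treated and late-treated) across 25091 regions; with the replicate block the Tlr2 difference was 10.1 points for pre-treated minus LPS, no direction changed, and no exact p could fall below 0.5.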
